A study of Mus musculus with 3 samples.

Results

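Histones are the proteins around which DNA is wound, and their messages were measured here in mouse intestinal organoids. All genes of the count table whose symbols start with Hist1h, Hist2h, Hist3h, Hist4h, H2af or H3f were taken, which gave 75 of 23271 genes. Of these, 66 carry a Hist symbol (6 H1, 18 H2A, 18 H2B, 11 H3 and 13 H4) and are called Hist genes here, and 9 are variant genes (7 H2A variants and 2 H3 variants). No measured value entered the choice.

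A dividing cell must make a full new set of histones while it copies its DNA, and the clustered Hist genes supply it in S phase. Their messages are unusual in that most end in a short stem-loop bound by the protein SLBP and carry no poly(A) tail, so that a method that captures poly(A) tails sees them poorly. Some Hist genes also give polyadenylated messages, which are known from cells that no longer divide. The variant genes are read throughout the cell cycle, mostly from genes with introns and polyadenylated messages. In the intestinal crypt, stem cells and their transit-amplifying daughters divide, and Paneth, enteroendocrine and other mature cells do not.

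Organoids of the study were grown from small intestinal crypts of C57BL/6 mice of both sexes aged 3 to 6 months. Those sequenced here, in all media, came from 1 donor, whose sex is not stated. Cells from 6 wells were loaded per array for single-cell RNA sequencing by Seq-Well, which captures poly(A) RNA on barcoded beads. All media held ENR, that is EGF at 50, Noggin at 100 and R-spondin 1 at 500 ng/mL. The ENR group had no further inhibitor, ENR+CD added the GSK3 inhibitor CHIR99021 (C, 3 µM) and the gamma-secretase inhibitor DAPT (D, 10 µM), and ENR+CV added CHIR99021 (3 µM) and valproic acid (V, 1 mM), a histone deacetylase inhibitor. All cells had first been expanded in ENR+CV with Y-27632 at the start, so the ENR and ENR+CD cells had met CHIR99021 and valproic acid before their 6 days in the final medium. The comparisons ask how the histone messages of the conventional culture (ENR) differ from those of the Paneth-directed culture (ENR+CD) and of the stem cell culture (ENR+CV).

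There was 1 library per medium, so no test between media was possible and each difference is one between libraries. Of 6249 cells, 5913 had at least 1000 and fewer than 8000 unique molecular identifiers (UMIs, each standing for 1 captured molecule) and 400 or more genes, namely 2545 in ENR, 2383 with ENR+CD and 985 with ENR+CV. They held 5095089, 4538388 and 2942252 UMIs, at a median of 1553, 1543 and 2499 per cell. The ENR and ENR+CD libraries shared 1 kept cell barcode, and ENR+CV shared none with either. The per-library tables and the labels went against each other: the 2506 cells that the merged table names ENR+CD were identical to cells of the file GEO lists for the ENR+CV sample, and the 1092 named ENR+CV to cells of the file it lists for the ENR+CD sample. The names of the merged table were followed, and under the other reading all ENR+CD and ENR+CV values below would change places. The numbers of analysed cells that the study states for each medium follow the merged names, as does the order of the Paneth marker levels given next, ENR+CD being the Paneth-directed medium. All 7 epithelial markers were detected in each library, with summed levels of 3893, 4127 and 4443 CPM (UMIs per 1000000 UMIs of the library). Paneth markers stood at 34196 CPM in ENR, 140652 with ENR+CD and 5476 with ENR+CV.

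Levels are CPM throughout, that is the UMIs of a gene over all UMIs of its library, with the exact Poisson 95% interval in parentheses. Ratios of CPM carry exact binomial 95% intervals and shares of cells Clopper-Pearson ones at the same level. These intervals cover counting error only and say nothing of the spread between cultures. Genes with 20 or more UMIs in a pair of libraries are called tested below, a rule of size and not a statistical test, and one was called higher or lower when its levels were 2-fold or more apart and their Poisson intervals did not meet. The counts tag messages near their captured end, so CPM was not divided by gene length, and levels of different genes are not ranked against each other. As in any summed sample, fewer cells with a message and less of it per cell cannot be told apart from these levels alone.

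Sequences of the stem-loop are shown first, because the loop lies where a Hist message without a tail ends. A stem-loop was found in the gene models (GENCODE vM21, build GRCm38, which may differ from the annotation the counts were made with) of 44 of the 66 Hist genes and of 1 of the 9 variant genes, H2afx. A model that stops before the loop counts here as having none. Across 21877 protein-coding genes, 99 (0.453%) had it, 52 of which were not members. In the lines below the 16 bases of the stem-loop are in capitals with 7 flanking bases on either side, read 5′ to 3′ on the strand of the gene. They are examples from each Hist family together with H2afx. Hist3h2a and Hist3h2ba were the only 2 Hist genes called higher in ENR+CD than in ENR. Hist1h2bj was among the 8 with the lowest such ratio. The H2A gene shown, Hist3h2a, was higher in ENR+CD, unlike most H2A genes.
Hist1h1e, chr13:23621775-23621804, minus strand: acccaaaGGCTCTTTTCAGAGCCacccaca
Hist1h1c, chr13:23739505-23739534, plus strand: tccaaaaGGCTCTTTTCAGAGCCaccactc
Hist1h2bj, chr13:22043631-22043660, plus strand: atccaaaGGCTCTTTTCAGAGCCacgcaca
Hist1h3c, chr13:23745040-23745069, minus strand: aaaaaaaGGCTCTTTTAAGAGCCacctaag
Hist1h4h, chr13:23531451-23531480, plus strand: aaccaaaGGCCCTTTTCAGGGCCgcccaca
Hist3h2a, chr11:58955165-58955194, plus strand: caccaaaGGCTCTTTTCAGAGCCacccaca
Hist3h2ba, chr11:58949342-58949371, plus strand: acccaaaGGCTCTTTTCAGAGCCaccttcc
H2afx, chr9:44335233-44335262, plus strand: ccacaaaGGCCCTTTTAAGGGCCaccacct
The same 16 bases, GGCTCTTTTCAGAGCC, stood in 24 members, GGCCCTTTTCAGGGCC in 7 and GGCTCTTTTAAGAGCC in 6. What differed was how far the model ran on past them. The Hist1h2bj model ended 23 bases and the Hist1h3c model 74 bases past the loop, whereas that of Hist3h2ba ran on for 169, Hist1h1c for 840, Hist1h1e for 1153 and Hist3h2a for 1643 bases. The loop of H2afx, the variant that marks DNA breaks when phosphorylated, lay 822 bases before the end of its model, the dual form for which that gene is known.

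Promoters are shown for the linker histone Hist1h1b, which was lower in ENR+CD, and for Hist3h2a, which was higher there. Both lines give the 120 bases directly before the RefSeq start on GRCm38 (assembly GRCm38.p6), 5′ to 3′ on the strand of the gene, with capitals, on either strand, for matches to CCAAT, to the string TATAAA and to the octamer ATTTGCAT.
Hist1h1b, chr13:21780626-21780745, minus strand: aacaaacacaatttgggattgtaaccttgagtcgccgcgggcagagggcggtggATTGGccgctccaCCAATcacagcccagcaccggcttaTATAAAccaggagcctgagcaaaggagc
Hist3h2a, chr11:58954565-58954684, plus strand: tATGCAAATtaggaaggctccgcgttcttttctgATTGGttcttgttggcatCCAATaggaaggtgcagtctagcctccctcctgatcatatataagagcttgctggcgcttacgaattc
Both promoters held CCAAT in either orientation, and only that of Hist3h2a held the octamer (here read from the other strand) in these windows. In the 250 bases before the start, CCAAT was found in 49 of 59 Hist promoters (83.1%) against 33.8% of all 32851 promoters, and TATAAA in 29 (49.2%) against 12.4%. The octamer, a letter string named as a target of Oct factors, was found in 13 of 59 (22.0%) against 1.60% of all. It was in 7 of 16 H2A and 6 of 16 H2B promoters and in none of the 6 H1, 9 H3 and 12 H4 promoters. CCAAT was in 3 of 12 H4 promoters but in all 38 of the H1, H2A and H2B ones. These are matches of letters in a window and not shown to be sites.

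The Hist genes lie together. The models of 55 are on chromosome 13, 8 on chromosome 3, 2 on chromosome 11 and 1 on chromosome 6. Those on chromosome 13 lie between 21715763 and 23934851, except Hist1h2al at chr13:51202727-51203065, which the annotation lists as a processed pseudogene. Of the 66, 62 have 1 exon, as have 3 of the 9 variant genes. Many Hist genes are near copies of each other: in 32 of them 50% or more of the 50-base stretches occur in other genes too, so reads could have been split between paralogs. Exons of Hist1h2be overlap those of Hist1h1e, exons of Hist3h2a those of Trim17, and exons of Hist2h2bb those of Gm42743, and the members in these pairs are as uncertain as the paralogs.

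The Hist genes together were lower in ENR+CD and near equal in ENR and ENR+CV. Their summed level was 1937 CPM (1899–1976) in ENR, 944 (916–972) with ENR+CD and 2023 (1972–2075) with ENR+CV. ENR+CD was therefore 2.05-fold lower than ENR (1.98–2.13), and ENR+CV was 1.04 times ENR (1.01–1.08). The direction of that last ratio depended on the scaling: divided by the ratio of the median gene (1.28), it was 0.819, and among cells with under 10% mitochondrial UMIs it was 0.922. ENR+CV stood 2.14 times above ENR+CD (2.06–2.23). Both comparisons with ENR use the same ENR library.

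Among single Hist genes, lower levels in ENR+CD were the rule. Of 58 Hist genes with 20 or more UMIs in the pair, 48 were lower and 2 were higher in ENR+CD than in ENR, where 9.35% of all 12197 genes tested were lower and 10.8% higher. Their median log2 ratio was −1.82 (3.54-fold lower), beside −0.01 over all genes tested, and 54 of 58 ratios were below 1. The 2 higher ones were Hist3h2a and Hist3h2ba. All 5 families had lower members, with 4 of 5 H1, 15 of 16 H2A, 10 of 15 H2B, 10 of 10 H3 and 9 of 12 H4 genes lower. Of the 66 Hist genes, 60 had 20 or more UMIs over the libraries, and Hist1h1t, Hist1h2ao, Hist1h2bq, Hist1h2br, Hist1h4m and Hist2h2aa2 had fewer.

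**Figure D1:**
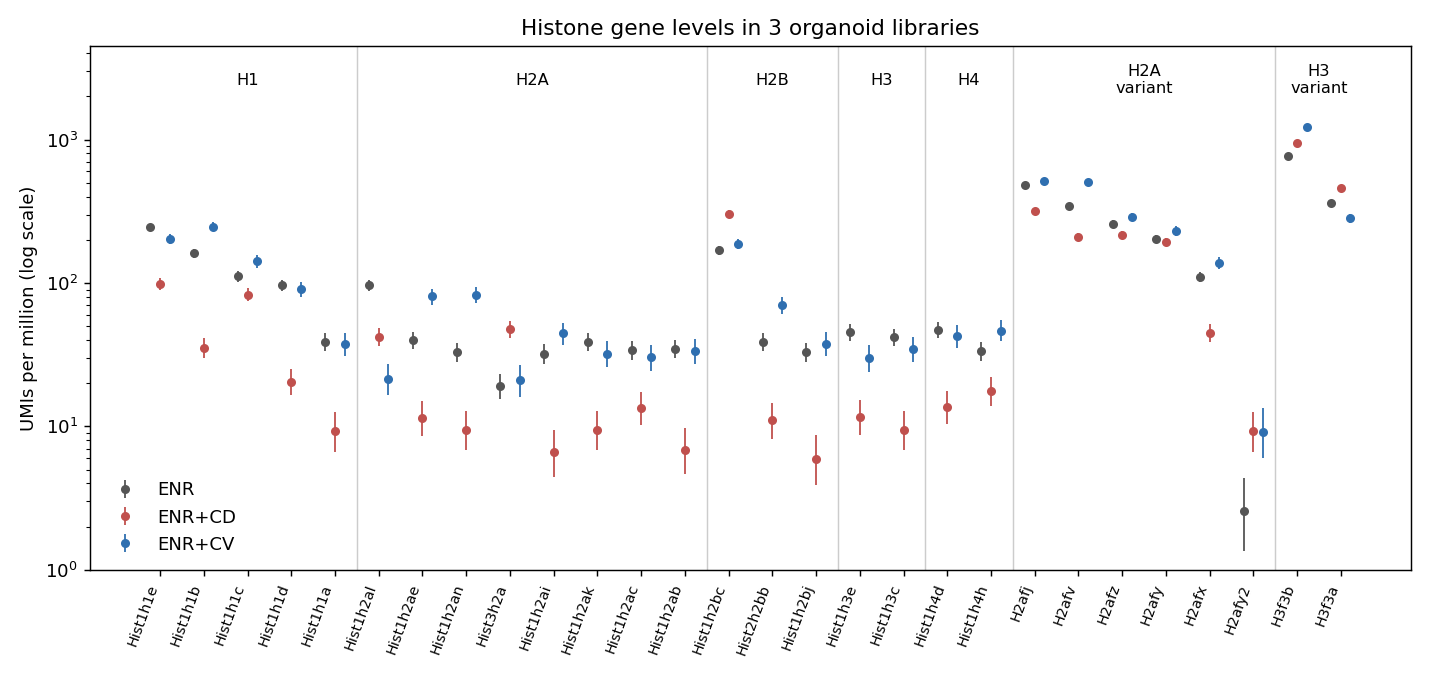
Levels of 28 histone genes (CPM, log axis) in the ENR, ENR+CD and ENR+CV libraries, 1 point per library with its exact Poisson 95% interval. ENR+CD sits lowest for most Hist genes, such as Hist1h1b at 35.5 CPM against 161 in ENR, but highest for Hist1h2bc at 304 CPM.

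The 6 H1 genes with Hist symbols encode linker histones, which bind the DNA between nucleosomes. Their summed level was 653 CPM in ENR, 247 with ENR+CD and 721 with ENR+CV, so ENR+CD was 2.64-fold lower than ENR (2.47–2.83). H1f0 and H1fx are outside this sum and are given below. Hist1h1e was at 244 CPM (231–258) in ENR, 98.7 (89.8–108) with ENR+CD and 204 (188–221) with ENR+CV. Hist1h1b was at 161 in ENR, 35.5 with ENR+CD and 247 with ENR+CV, 4.55-fold lower in ENR+CD than ENR (3.84–5.42). ENR+CV was thus the highest library for Hist1h1b, at 1.53 times ENR (1.39–1.70), and ENR the highest for Hist1h1e. Hist1h1d stood at 96.8, 20.5 and 90.7 CPM in ENR, ENR+CD and ENR+CV, and Hist1h1a at 39.1, 9.25 and 37.4. These were 4.72-fold (3.78–5.96) and 4.22-fold (3.01–6.04) lower in ENR+CD than in ENR. Hist1h1c was the exception among the H1 genes, at 111 CPM in ENR, 82.8 with ENR+CD and 141 with ENR+CV, which is 1.34-fold lower in ENR+CD (1.17–1.53) and under the 2-fold mark.

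The H2A genes, whose products pair with H2B in the nucleosome core, had a summed level of 436 CPM in ENR, 171 with ENR+CD and 456 with ENR+CV. Most members followed the sum: Hist1h2ab was at 34.7, 6.83 and 33.3 CPM in ENR, ENR+CD and ENR+CV, and Hist1h2ak at 38.7, 9.47 and 31.9. Hist1h2ac stood at 34.2, 13.4 and 30.2 CPM and Hist1h2ai at 32.0, 6.61 and 44.5. In these 4 the ENR+CD library was the lowest, between 2.54-fold and 5.09-fold below ENR. The lowest ratio among those with 50 or more UMIs was that of Hist1h2ap, with 77 UMIs in ENR, 3 with ENR+CD and 10 with ENR+CV, 22.9-fold lower in ENR+CD with an interval of 7.54 to 113. Of its 50-base stretches, 93.1% occur in other genes. Hist3h2a ran the other way, at 19.0 CPM (15.4–23.2) in ENR, 47.8 (41.7–54.6) with ENR+CD and 21.1 (16.2–27.0) with ENR+CV, an ENR+CD level 2.51 times that of ENR (1.97–3.22). It was also the single Hist gene counted as lower in ENR+CV than in ENR+CD.

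The H2B genes showed no lower sum in ENR+CD, at 403 CPM in ENR, 388 with ENR+CD and 455 with ENR+CV, a ratio of 0.965 for ENR+CD over ENR (0.905–1.03). This sum rests on Hist1h2bc, which was at 169 CPM (158–181) in ENR, 304 (288–321) with ENR+CD and 188 (173–204) with ENR+CV, or 1.80 times higher in ENR+CD than ENR (1.65–1.96). In its model, 30.1% of the 50-base stretches occur in other genes. These number 100 and include genes that are not histones, such as Bicra, so its count may hold reads of other genes. Most other H2B genes were lower: Hist1h2bj stood at 32.8, 5.95 and 37.7 CPM in ENR, ENR+CD and ENR+CV, 5.51-fold lower in ENR+CD (3.65–8.61). Hist2h2bb was at 39.1, 11 and 70 CPM. Hist1h2bf had 59 UMIs in ENR, 6 with ENR+CD and 17 with ENR+CV, and Hist1h2bk had 80, 13 and 39. Hist3h2ba, next to Hist3h2a on chromosome 11, had 27, 104 and 43 UMIs, or 5.30 CPM in ENR, 22.9 with ENR+CD and 14.6 with ENR+CV, which is 4.32 times higher in ENR+CD than ENR (2.81–6.87). Hist2h2be had 23, 31 and 22 UMIs, with a ratio of 1.51 whose interval (0.854–2.72) includes 1.

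The H3 genes were lower in ENR+CD without exception among the 10 tested, with a summed level of 208 CPM in ENR, 54.6 with ENR+CD and 160.4 with ENR+CV, 3.80-fold lower (3.31–4.38). Hist1h3e was at 45.3 CPM in ENR, 11.7 with ENR+CD and 29.9 with ENR+CV, and Hist1h3c at 42.0, 9.47 and 34.7. Hist1h3b had 83 UMIs in ENR, 10 with ENR+CD and 41 with ENR+CV. Hist2h3b (75, 9 and 41 UMIs) and Hist1h3g (63, 9 and 44 UMIs) were likewise lowest in ENR+CD, 7.42-fold and 6.24-fold below ENR. The H4 genes had summed levels of 237, 82.2 and 231 CPM, 2.89-fold lower in ENR+CD than ENR (2.57–3.25). Hist1h4d was at 47.1, 13.7 and 42.5 CPM in ENR, ENR+CD and ENR+CV, and Hist2h4 had 70, 11 and 41 UMIs. Hist1h4h, at 33.6, 17.6 and 46.6 CPM, was 1.90-fold lower in ENR+CD than ENR (1.45–2.52) and just missed the 2-fold mark.

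A few members thus carried much of the Hist sum left in ENR+CD. Without Hist1h2bc the Hist sum of ENR+CD came to 0.362 of the ENR sum. Without Hist1h2bc, Hist3h2a, Hist3h2ba, Hist2h2be and Hist1h1c, a choice made after their values were seen, the sums were 1628 CPM in ENR, 479 with ENR+CD and 1651 with ENR+CV, 3.40-fold lower in ENR+CD than ENR (3.24–3.56).

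**Figure D2:**
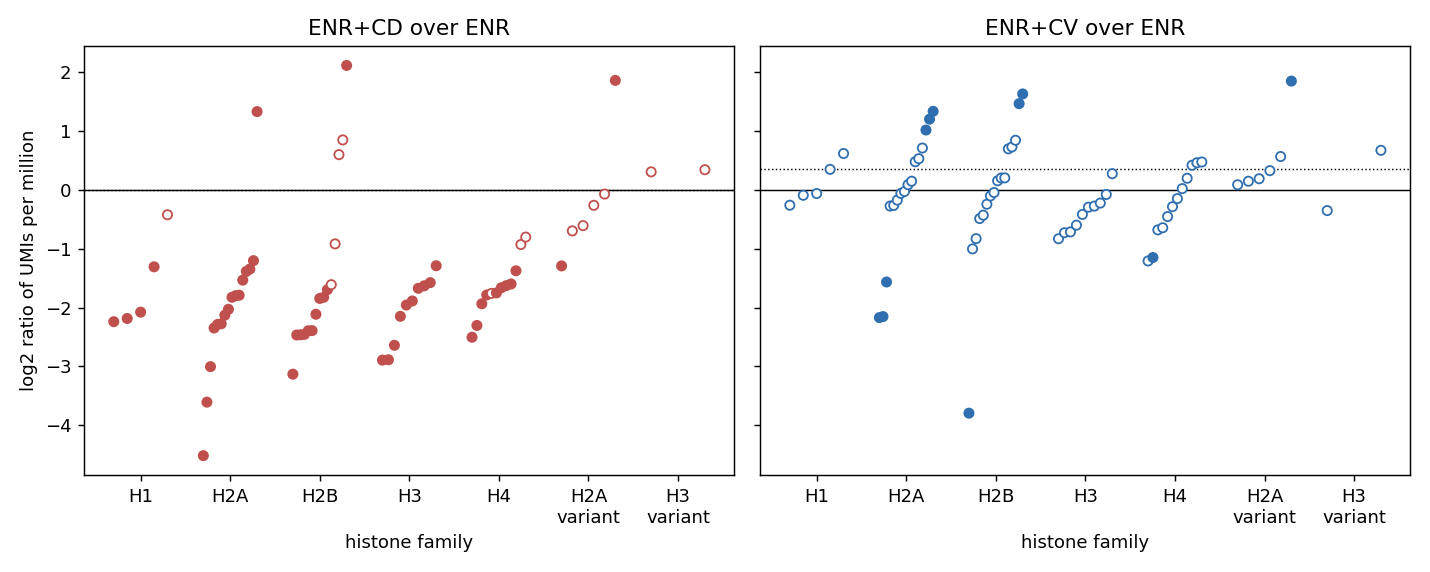
Log2 ratio of CPM for each tested histone gene by family, ENR+CD over ENR and ENR+CV over ENR, filled points being 2-fold or more with separate intervals and dotted lines the median of all tested genes. In ENR+CD the Hist families centre between −1.71 and −2.08, the H2A variants at −0.44 and the H3 variants at 0.32. In ENR+CV the families lie nearer 0.

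In ENR+CV the Hist genes were not shifted as a group in CPM. Of 59 tested against ENR, 5 were higher and 5 were lower, where 15.9% of all 11962 genes tested were higher and 5.8% lower. The median log2 ratio of all genes in this pair was 0.35, which is over 0.1, so the balance of calls depends on the scale. The Hist median was −0.09, or 0.44 below the median gene. Divided by the median gene's ratio, 1 Hist gene was higher (Hist3h2ba) and 12 were lower, beside 8.61% and 9.02% of all genes. The family medians relative to the median gene were −0.41 for H1, −0.32 for H2A, −0.30 for H2B, −0.71 for H3 and −0.57 for H4.

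The 5 higher ones were 3 H2A and 2 H2B genes. Hist1h2ae was at 39.8 CPM (UMIs 203) in ENR and 80.6 (237) in ENR+CV, 2.02 times higher (1.67–2.45). Hist1h2an was at 32.8 and 82.6 CPM, 2.52 times higher (2.06–3.09). Hist1h2af had 52 UMIs in ENR and 69 in ENR+CV, Hist1h2bp 14 and 25, and Hist3h2ba 27 and 43, with ratios of 2.30 (1.58–3.36), 3.09 (1.55–6.44) and 2.76 (1.67–4.64). Of these 5, Hist3h2ba alone stayed 2-fold higher relative to the median gene. The next highest ratios were those of Hist2h2bb (1.79), Hist1h2ah (1.64) and Hist1h2bn (1.62).

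The 5 lower ones were Hist1h2al, Hist1h2ap, Hist1h2ba, Hist1h4b and Hist2h2ab. The pseudogene Hist1h2al was at 96.4 CPM in ENR, 41.9 with ENR+CD and 21.4 with ENR+CV, 4.50-fold lower in ENR+CV than ENR (3.46–5.95). It was lower in both other media, and without it the Hist sums were 1841, 902 and 2002 CPM. Hist1h2ap was 4.45-fold lower in ENR+CV (2.29–9.64), Hist1h4b (73 and 19 UMIs) 2.22-fold lower (1.32–3.89) and Hist2h2ab (41 and 8 UMIs) 2.96-fold lower (1.37–7.31). Hist1h2ba, known as a testis H2B, had 24 UMIs in ENR, 7 with ENR+CD and 1 with ENR+CV, a 13.9-fold lower level in ENR+CV with an interval of 2.26 to 570.0. Hist1h2bf was 2.004-fold lower but its intervals met, and Hist1h3a and Hist1h2bh were each 1.78-fold, Hist1h3f 1.66-fold and Hist1h3h 1.64-fold lower, all under the mark.

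Between ENR+CV and ENR+CD, 38 of 53 Hist genes were higher in ENR+CV and 1 was lower, where 18.9% of all 12099 genes tested were higher and 7.1% lower. The median log2 ratio was 1.80 for the Hist genes and 0.36 for all genes. The highest ratios among genes with 50 or more UMIs in the pair were those of Hist1h2an, at 8.72 (6.28–12.4), and Hist1h3g, at 7.54 (3.63–17.6). Hist1h2ah, Hist1h2ae, Hist2h3b, Hist1h1b, Hist1h2ai and Hist1h2af followed at 7.15 to 6.65 times, with intervals that overlap. At the other end Hist3h2a was 2.27-fold, Hist1h2al 1.96-fold, Hist1h2bc 1.62-fold and Hist3h2ba 1.57-fold lower in ENR+CV. Relative to the median gene, 30 were higher and 4 lower (Hist1h2al, Hist1h2bc, Hist3h2a and Hist3h2ba), beside 10.4% and 11.1% of all genes.

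The variant genes differed little as a sum, at 2524 CPM (2481–2568) in ENR, 2392 (2347–2437) with ENR+CD and 3184 (3119–3249) with ENR+CV. That gave 0.948 for ENR+CD over ENR (0.924–0.972) and 1.26 for ENR+CV over ENR (1.23–1.30), the latter 0.988 once divided by the median gene's ratio. The Hist genes gave 0.767 UMIs per variant UMI in ENR (0.747–0.788), 0.395 with ENR+CD (0.381–0.409) and 0.636 with ENR+CV (0.615–0.657), a ratio that needs no library total. Of 8 variants tested, 1 was higher (H2afy2) and 1 lower (H2afx) in ENR+CD than in ENR, against the same 10.8% and 9.35% of all genes. In ENR+CV against ENR, 1 was higher (H2afy2) and 0 were lower. H2afb1 had 1 UMI, in ENR+CV, and none in ENR, where a count of 0 allows up to 0.589 CPM.

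The H3 and the H2A variants went different ways in ENR+CD. H3f3a and H3f3b encode the same protein, H3.3, which is placed in chromatin outside DNA replication. H3f3b was at 765 CPM (UMIs 3896) in ENR, 945 (4287) with ENR+CD and 1217 (3582) with ENR+CV, and H3f3a at 360.2, 456 and 282 CPM. Both were thus above ENR in ENR+CD, 1.24 (1.18–1.29) and 1.27 times (1.19–1.35), but in ENR+CV H3f3b was 1.59 times higher (1.52–1.67) and H3f3a 1.28-fold lower (1.18–1.39). The H2A variants together were at 1399.6 CPM in ENR, 991 with ENR+CD and 1684 with ENR+CV. H2afx was at 110.1 CPM (101–120) in ENR, 44.9 (39.0–51.6) with ENR+CD and 138 (125–152) with ENR+CV, 2.45-fold lower in ENR+CD than ENR (2.08–2.89).

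Among the other H2A variants, H2afz and H2afv encode both forms of H2A.Z, which sits at promoters. H2afv stood at 342 CPM in ENR, 211 with ENR+CD and 506 with ENR+CV, 1.62-fold lower (1.498–1.76) in ENR+CD and 1.48 times higher (1.38–1.59) in ENR+CV than in ENR. H2afz was closer, at 259.9, 217 and 288 CPM. H2afj, the gene of H2A.J, was at 482, 316 and 512 CPM, 1.52-fold lower in ENR+CD (1.43–1.63). The macroH2A genes H2afy and H2afy2 differed from each other: H2afy was at 203, 193 and 231 CPM, with the ENR+CD and ENR intervals overlapping, whereas H2afy2 had 13, 42 and 27 UMIs, or 2.55, 9.25 and 9.18 CPM. H2afy2 was 3.63 times higher in ENR+CD (1.91–7.36) and 3.60 times higher in ENR+CV (1.79–7.59) than in ENR.

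Genes that serve the histones were read from lists of their own. Of 29 tested genes of histone mRNA processing, 1 was higher and 1 lower in ENR+CD than ENR, and 3 were higher and 0 lower in ENR+CV than ENR. These counts are at or under the share of all genes, 10.8% higher and 9.35% lower in ENR+CD and 15.9% higher in ENR+CV. Slbp, whose protein binds the stem-loop, was at 54.2 CPM in ENR, 51.8 with ENR+CD and 85.0 with ENR+CV, and Npat, the activator of Hist gene transcription, at 29.6, 27.8 and 45.2. Neither was lower in ENR+CD beyond its interval, with ratios of 0.956 (0.7998–1.14) and 0.937 (0.734–1.19). Lsm11, a part of the U7 particle that cuts histone pre-mRNA, was the lower one at 9.81, 4.63 and 13.9 CPM, and Zcchc11, an enzyme that adds uridines to RNA ends, the higher one at 20.8, 58.6 and 53.7. In ENR+CV, Sympk of the cleavage complex was at 81.2 CPM against 36.5 in ENR and 25.6 in ENR+CD. Ccne1, a cyclin that drives entry into S phase, was at 40.4 CPM in ENR+CV against 14.9 in ENR and 10.6 in ENR+CD. Zcchc11, Sympk and Ccne1 were the 3 higher ones. Against ENR+CD, 7 of the 29 were higher in ENR+CV, beside 18.9% of all genes, and besides Lsm11, Sympk and Ccne1 these were Snrpd3, Snrpf and Snrpg of the Sm ring, at 2.24, 2.09 and 2.19 times, and Ccne2 at 2.76 times.

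Of 37 histone chaperones and exchange factors, 0 were higher and 3 lower in ENR+CD than ENR, a share under the 9.35% of all genes. Chaf1a, the large subunit of the CAF-1 complex that lays down H3 and H4 behind the replication fork, was at 37.1 CPM in ENR, 12.8 with ENR+CD and 42.8 with ENR+CV. Ruvbl2, an ATPase of remodelling complexes, was at 72.4, 30.0 and 101 CPM, and Mms22l, which acts at stalled forks, at 19.8, 8.37 and 20.7. The CAF-1 partner Chaf1b (25.9, 16.5 and 49.3 CPM) and the H3–H4 chaperone Asf1b (24.9, 13.9 and 47.6 CPM) had the same order without passing the mark against ENR. Nasp, which holds a reserve of H3 and H4, was at 227, 129.6 and 195 CPM. Hira, which deposits H3.3, was at 28.7, 20.3 and 41.1 CPM. In ENR+CV 2 were higher than in ENR, where 15.9% of all genes were, namely Daxx, another H3.3 chaperone (14.7 and 35.7 CPM), and Znhit1 of the complex that inserts H2A.Z (63.8 and 198 CPM). Against ENR+CD, 9 of 37 were higher in ENR+CV, beside 18.9% of all genes: Chaf1a, Chaf1b, Asf1b, Hira, Ruvbl2, Mms22l, Znhit1, Anp32e (2.40 times) and Hjurp (2.26 times).

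Histone genes with other symbols fell outside the choice of members, and 3 of 10 on that list were in the table. H1f0, the linker histone H1.0 known from cells that have stopped dividing, was at 229 CPM in ENR, 249.9 with ENR+CD and 866 with ENR+CV, 3.78 times higher in ENR+CV than ENR (3.52–4.05). In the same pair the tested H1 genes with Hist symbols were between 0.835 and 1.53 times ENR. H1fx had 8, 29 and 28 UMIs. Cenpa, the centromere H3, was at 110.1, 53.1 and 116 CPM, 2.07-fold lower in ENR+CD than ENR (1.78–2.42).

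Both the Hist genes and the genes of the cell cycle were lower in ENR+CD than in ENR. Mki67, a marker of cycling cells, was at 384 CPM in ENR, 174 with ENR+CD and 366 with ENR+CV, 2.20-fold lower in ENR+CD (2.03–2.40) and 0.953 times ENR in ENR+CV (0.884–1.03). A list of 42 S phase genes had 13 lower and 0 higher in ENR+CD than ENR, and a list of 50 G2 and M phase genes 27 lower and 0 higher, with median log2 ratios of −0.89 and −1.03 beside −1.82 for the Hist genes. Over all genes tested in this pair, 9.35% were lower and 10.8% higher, at a median of −0.01. No member is on either list. In ENR+CV 1 gene of the S list (Blm) and 1 of the G2/M list (Gas2l3) were higher than in ENR and 1 of the G2/M list (Tubb4b) was lower, beside 15.9% and 5.8% of all genes. The summed level of the G2/M list there was 0.998 times ENR (0.978–1.02) and that of the S list 1.13 times (1.10–1.16). The part that cell cycle, Paneth content or capture had in the Hist difference was not tested.

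To look within libraries, each cell was thinned to 1000 UMIs, which every kept cell had. Of the thinned cells, 672 in ENR (26.4%), 307 with ENR+CD (12.9%) and 251 with ENR+CV (25.5%) held a Mki67 UMI, most of them exactly 1 (484, 240 and 179 cells), so a cell without one may still have been cycling. The Hist level of cells with a Mki67 UMI against those without was 2249 against 1766 CPM in ENR, 1163 against 932 with ENR+CD and 3263 against 1901 with ENR+CV. The ratios were 1.27 (1.197–1.35), 1.25 (1.11–1.40) and 1.72 (1.57–1.87). For the variant genes they were 1.08 (1.02–1.14), 1.12 (1.04–1.21) and 1.005 (0.925–1.09). Mki67-bearing cells thus had more Hist message in each library, and in ENR and ENR+CV the intervals of Hist and variant genes lay apart.

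Members differed in how they went with Mki67. Hist1h1b was 1.71 (1.39–2.10), 1.39 (0.723–2.499) and 1.56 (1.19–2.04) times higher in Mki67-bearing cells of ENR, ENR+CD and ENR+CV. Hist1h2bc stood at 0.938 (0.745–1.17), 0.974 (0.773–1.21) and 1.15 (0.831–1.57), so none of its intervals left 1. Among the variants, H2afx was at 1.26 (0.969–1.63), 1.40 (0.792–2.34) and 2.16 (1.53–3.03), and H2afz at 1.28 (1.08–1.51), 1.34 (1.05–1.69) and 0.965 (0.717–1.28). By family, the H2B genes in ENR+CD had a ratio of 0.9999 (0.817–1.21) and the H2A genes 1.80 (1.42–2.28), and in ENR+CV the H3 genes reached 2.42 (1.79–3.28). Hist1h2bj, whose loop is shown above, had a ratio of 0.963 (0.540–1.65) in ENR and 2.44 (1.28–4.603) in ENR+CV.

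Across cells the link was weak. Spearman's coefficient between Hist and Mki67 UMIs of the thinned cells was 0.09 in 2545 ENR cells, 0.07 in 2383 ENR+CD cells and 0.24 in 985 ENR+CV cells, as a description of sparse counts in which cells share a library and a depth. With the G2/M list it was 0.21, 0.14 and 0.33, and with the S list 0.14, 0.08 and 0.16.

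Grouped by both lists, with 2 or more UMIs as the limit, Hist levels in ENR were 2115 CPM in 1708 cells with both, 1550 in 520 cells with G2/M only, 1453 in 179 with S only and 1014 in 138 with neither. In ENR+CD they were 1154, 974, 796 and 781, over 799, 653, 373 and 558 cells. In ENR+CV they were 2695, 2056, 1285 and 1350, over 580, 161, 144 and 100 cells. Cells with both lists were the highest in each library. Cells with S-list messages only were not above those with G2/M only: the ratios were 0.937 (0.811–1.08), 0.817 (0.706–0.944) and 0.625 (0.519–0.751).

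**Figure D3:**
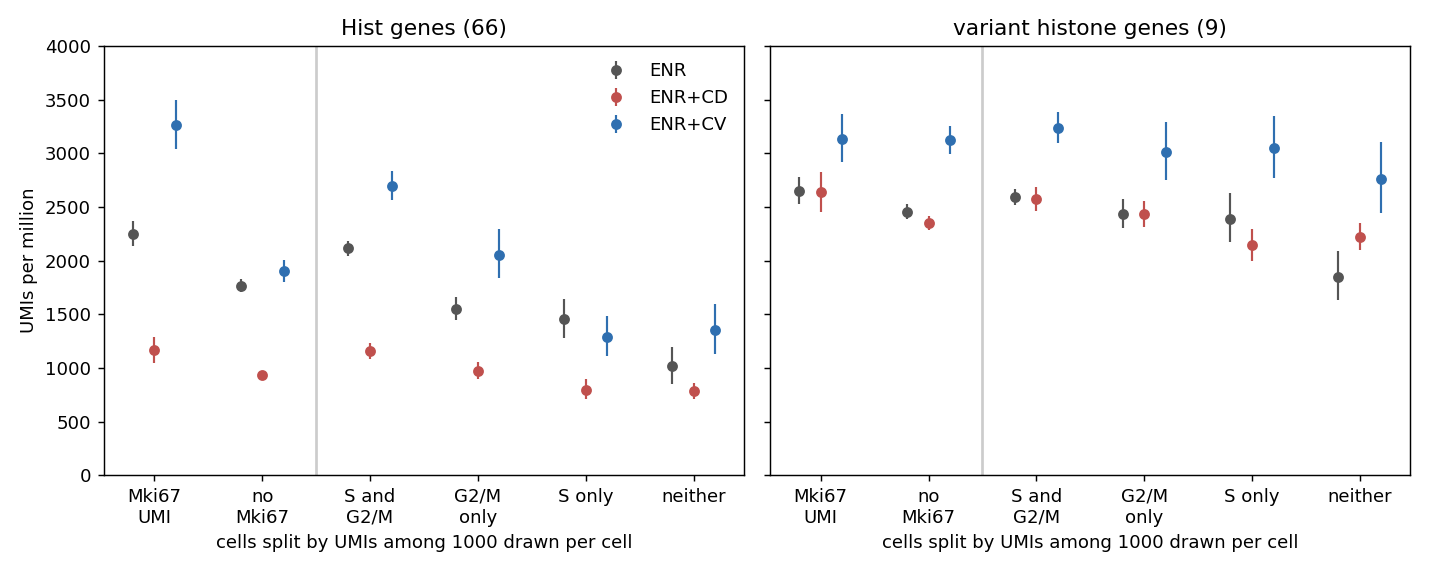
Hist and variant CPM in thinned cells of each library, grouped by a Mki67 UMI and by 2 or more UMIs of the S and G2/M lists, with exact Poisson 95% intervals. Cells with both lists are highest for the Hist genes in each library (2115, 1154 and 2695), and for these genes ENR+CD is the lowest library in every group.

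The lower Hist level of ENR+CD was present within each of these groups. Thinned, ENR+CD over ENR was 0.517 among cells with a Mki67 UMI, 0.527 among those without, 0.546 among cells with both lists and 0.770 among cells with neither. Among cells with under 100 Paneth marker UMIs of 1000 it was 0.604 (1189 against 1968 CPM), and among those with 100 or more it was 0.678 (823 against 1215), with 251 ENR and 1483 ENR+CD cells in the latter. Cells between 80 and 120 such UMIs numbered 120 in ENR and 328 in ENR+CD. Each of these ratios was under 1, the one of cells with neither list being the closest to it.

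The share of thinned cells with any Hist UMI was 75.3% in ENR (73.6–77.0), 55.8% with ENR+CD (53.7–57.8) and 72.9% with ENR+CV (70–75.6). At their own depth it was 87.2%, 70.9% and 90.5%. Free RNA can give UMIs to cells that do not make a message. The shares in cells rich in Paneth markers and in cells with few phase-list messages are therefore set beside these. The Paneth-rich group may include cycling cells: at own depth, ENR+CD cells with a Mki67 UMI held Paneth markers at 111368 CPM. Cells with 100 or more Paneth marker UMIs had 66.5% in ENR (60.3–72.3, 251 cells) and 51.3% in ENR+CD (48.7–53.9, 1483 cells), at median depths of 1588 and 1521 UMIs. Cells with under 2 UMIs of both phase lists had 56.5% (47.8–64.9), 48.0% (43.8–52.3) and 65.0% (54.8–74.3) in ENR, ENR+CD and ENR+CV. Both groups were below all cells in ENR, with intervals apart. Neither group is known to lack Hist messages, so the level of background was not determined.

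Per cell, the mean was 1.89 Hist UMIs per 1000 in ENR, 0.961 with ENR+CD and 2.25 with ENR+CV, and the highest cell had 17, 25 and 28. In ENR+CV the Hist UMIs were more unevenly spread. The 10% of cells with most Hist UMIs held 32.2% of them in ENR, 37.2% with ENR+CD and 40.2% with ENR+CV, against 23.5%, 24.5% and 22.6% for the variants. The variance over the mean was 1.98, 1.60 and 4.05 for Hist genes and 1.205, 1.25 and 1.28 for variants. Cells with 10 or more Hist UMIs numbered 19 in ENR, 1 with ENR+CD and 24 with ENR+CV (2.44%).

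Those 24 ENR+CV cells had a median of 17.4% mitochondrial UMIs and of 68 UMIs of structural non-coding RNA, and 50% held a Mki67 UMI, whereas the 19 ENR cells had medians of 15.3% and 3 UMIs. The whole ENR+CV library had 3.89% mitochondrial UMIs, against 16.5% in ENR and 8.67% in ENR+CD. By mitochondrial share, at the cells' own depth, the Hist level of ENR+CV was 1649 CPM in 503 cells under 2.5%, 2039 in 208 cells, 2269 in 121 cells, 4193 in 56 cells and 4528 in 97 cells at 15% or more. The variants went the other way, from 3470 to 2571 CPM between the lowest and the highest bin. Mki67 was at 365, 355, 353, 433 and 398 CPM over the same bins, and the S list was at 4106 CPM in the lowest and 2018 in the highest.

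In ENR+CD the Hist level also differed along these bins, at 439.5 CPM under 2.5% and 1170.2 at 15% or more. These 2 ENR+CD bins also differed in Mki67 (59.4 and 273 CPM) and in Paneth markers (329623 and 58770 CPM), whose part was not tested. In ENR the Hist level lay between 1310.1 and 2057, the last in a bin of 8 cells. For the 153 ENR+CV cells with 10% or more it was 4386 CPM against 1797 in the other 832. Of 50 Hist genes with 20 or more UMIs in these cells, 46 were above 1 and 34 were at 2 or more, with a median of 2.76. The share over all genes is not given for this split, so whether the shift is particular to Hist genes was not tested. The cells with 10% or more were also shallower, at a median of 1393 UMIs against 2878. Hist1h4c was 7.76, Hist1h2ah 6.75 and Hist1h4h 6.60 times higher, whereas Hist1h2ae was at 0.964 and Hist1h3c, from 3 UMIs in the cells with 10% or more, at 0.317 (0.0643–0.954). Thinned, ENR+CV over ENR was 0.964 for Hist genes in cells under 10% and 2.36 in cells with more. Structural non-coding RNA moved along with it, from 3764 to 48496 CPM over the ENR+CV bins, and its part in the result was not tested.

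**Figure D4:**
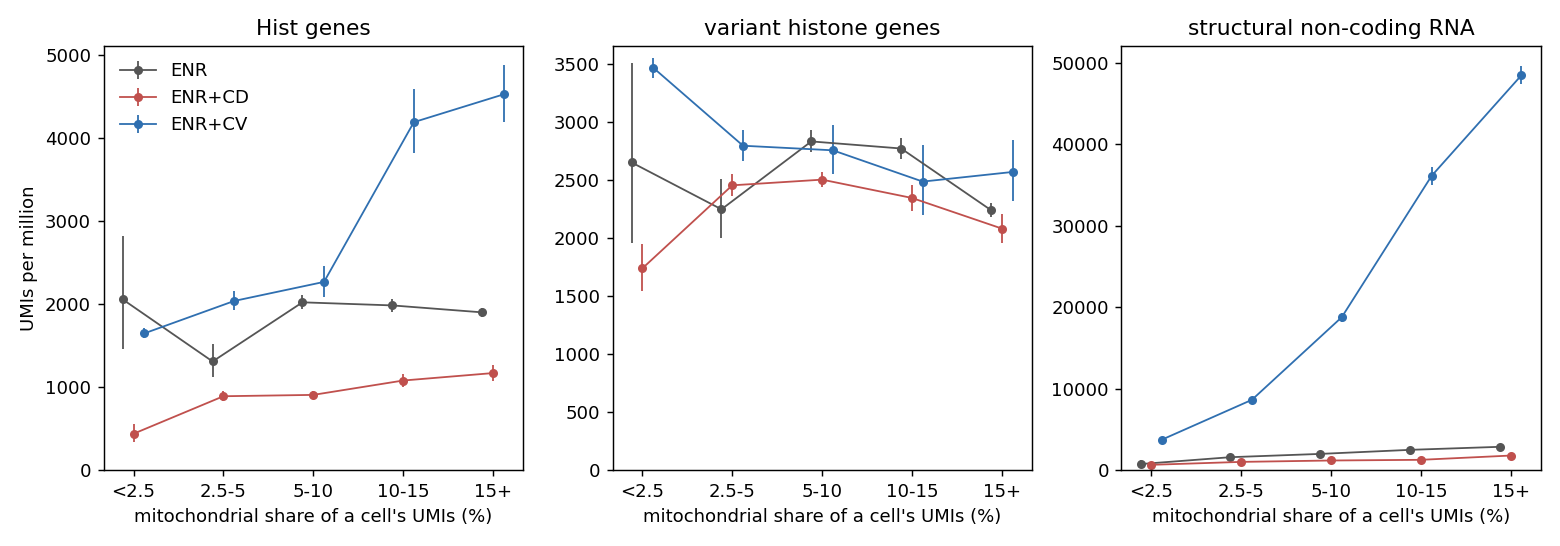
Hist, variant and structural non-coding RNA CPM at the cells' own depth, by the mitochondrial share of the cell, for each library with exact Poisson 95% intervals. In ENR+CV the Hist level goes from 1649 to 4528 CPM and the variant level from 3470 to 2571, and the lowest ENR bin holds 8 cells.

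The end of the gene model went with the difference in ENR+CD. The 22 Hist genes whose model ends under 100 bases past the stem-loop, such as Hist1h2bj above, had summed levels of 394 CPM in ENR, 97.2 with ENR+CD and 358 with ENR+CV, with 17 of 18 tested lower in ENR+CD, 0 higher and a median log2 ratio of −2.32. The 22 whose model runs on for 100 bases or more, such as Hist1h1e and Hist3h2a, were at 819, 383 and 825 CPM, with 14 of 20 lower, 2 higher and a median of −1.68. The 22 with no loop in the model, Hist1h2bc among them, were at 724, 463 and 840.2 CPM, with 17 of 20 lower and a median of −1.96. Several of these models are short, such as those of Hist1h4k (312 bases) and Hist1h2an (393 bases). A loop or poly(A) signal past the end of such a model could not be found, so this group is not one of genes shown to lack a loop. A poly(A) signal within the last 40 bases of the model was found in 15 Hist genes, of which 4 of 12 tested were lower and 2 higher in ENR+CD, at a median of −0.92. Of the 51 without it, 44 of 46 tested were lower and 0 higher, at a median of −1.95. Over all genes tested in this pair, 9.35% were lower and 10.8% higher in ENR+CD. These groups were compared as counts and medians only, and the authors' counting annotation may have ended the genes elsewhere.

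**Figure D5:**
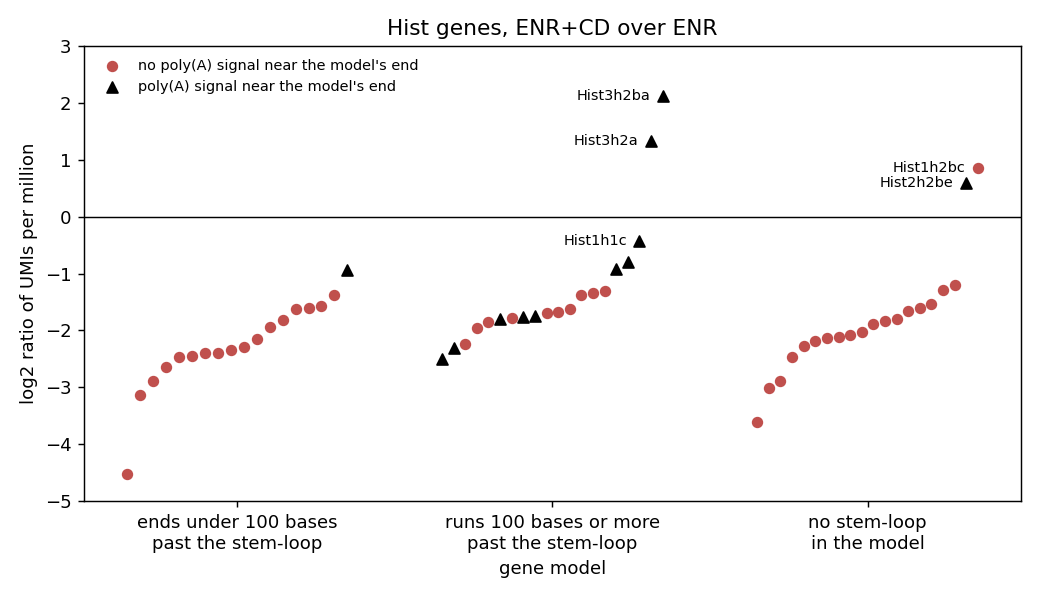
Log2 ratio of ENR+CD over ENR for each tested Hist gene, grouped by how its gene model ends, with triangles for models that hold a poly(A) signal in their last 40 bases. The group medians are −2.32, −1.68 and −1.96, and both genes that are 2-fold or more higher, Hist3h2a and Hist3h2ba, carry that signal.

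Sharing of sequence went with the difference in ENR+CD as well, but these groups overlap those of the model's end. Many models that end soon after the loop also have 50% or more sharing, such as that of Hist1h2bj at 59.4%. The groupings were not separated. The 32 Hist genes with 50% or more of their 50-base stretches in other genes were at 589 CPM in ENR, 159.5 with ENR+CD and 565 with ENR+CV, and all 25 tested were lower in ENR+CD, at a median log2 ratio of −2.11. Of the 34 with less sharing, 23 of 33 were lower and 2 higher, at −1.70, beside 9.35% lower and 10.8% higher of all genes tested. The genes under 50% sharing thus had the same direction, but only 9 Hist genes had under 10%. The part that shared reads had in the difference was not tested. Reads per UMI differed between the libraries, at 15.3, 18.3 and 10.2 over all genes, and were lower for Hist genes, at 9.73, 14.1 and 8.77, as for variants, at 9.79, 11.7 and 8.48.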

How the data were processed

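Seq-Well libraries of single cells, 3 in all, came from 1 array per medium. The authors demultiplexed with bcl2fastq, aligned to mm10 through a Drop-seq pipeline and collapsed reads by UMI, and the submitters' notes also name STAR and Seurat. Tool versions and annotation are not named in what was read (not given in the sources used here). Of the files, the deposited merged table holds raw UMI counts of cells with at least 1000 UMIs, and the deposited per-library tables hold counts of UMIs and of reads. The merged table was the main source, and the per-library tables were used for the identity of libraries, the barcodes under 1000 UMIs and the reads per UMI. No column of another series (0) was present.

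The members, gene lists and comparisons were chosen with earlier results of these data known. Cells with at least 1000 and fewer than 8000 UMIs and 400 or more genes entered. UMIs were summed per library and scaled to its total, and mitochondrially encoded and structural RNA stayed in the total. Cells were thinned to 1000 UMIs with a fixed seed for comparisons within libraries, and no doublet caller was run. With 1 library per medium no count model was fitted and no p-value computed. Members named with values are all variants with 20 or more UMIs, the 20 Hist genes with the highest mean CPM, the 8 largest ratios each way per pair among those with 50 or more UMIs, Mki67, and genes of the processing and chaperone lists that passed the 2-fold rule, with Slbp, Npat, Nasp, Asf1b, Chaf1a, Chaf1b and Hira in any case. Other members named where a count is spelled out were chosen after their values were seen. Immune and stromal markers, 11 in the table, summed to 109, 313 and 267 CPM in ENR, ENR+CD and ENR+CV, mostly Lyz2 and Vim, with Cd3e at 0 in each library, and enteroendocrine markers to 3809, 8214 and 176.

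Gene models were those of GENCODE vM21 and promoters those of RefSeq, both on GRCm38, and all 75 members had a model and 66 a promoter. The stem-loop was searched as the histone stem-loop pattern. Alternatives varied the cells, the scaling, the total, the thresholds and the leading gene. The counting code was tested on simulated data. Computation used Python 3.11.15 with SciPy 1.17.1 and NumPy 2.4.6, and plots used matplotlib 3.10.9.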

Additional observations from a re-analysis of the deposited data

Results flagged for a closer look

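Barcodes under 1000 UMIs entered no comparison, yet they carried Hist UMIs in the same order of libraries as the kept cells. Their Hist level was 1745 CPM (1690.3–1801) in 3345 ENR barcodes, 1022 (986–1060) in 5493 ENR+CD barcodes and 2257 (2171–2347) in 3907 ENR+CV barcodes, from 3824, 3024 and 2557 UMIs. Such barcodes can be small cells, broken cells or beads with free RNA, and which they were was not tested.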

How the results depend on the processing

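Of 59 recomputed values, 30 stayed within the spread given by counting, 24 moved beyond it and 5 changed direction. For the Hist sum in ENR+CV over ENR (1.04), the direction turned with scaling to the median gene (0.819). It also turned with a total without mitochondrial and structural RNA (0.914, 0.885–0.944) and with cells under 10% mitochondrial (0.922, 0.879–0.967). With all cells of the merged table the ratio turned as well (0.987), but its interval (0.959–1.02) includes 1. The mean of the cells' shares gave 1.19 and cells with a Mki67 UMI 1.09. The variant sum in ENR+CV over ENR (1.26) turned with median scaling (0.988), and was 1.22 as the mean of shares, 1.10 without mitochondrial and structural RNA, 1.17 under 10% mitochondrial and 1.12 without H3f3b. For the Hist sum in ENR+CD over ENR (0.487) these totals and cells gave 0.445 and 0.451, leaving out Hist1h2bc 0.362, and leaving out 5 members, an alternative chosen after seeing the data, 0.294. The variant sum in ENR+CD over ENR (0.948) was 0.865, 0.884, 0.988 with Mki67-bearing cells and 0.823 without H3f3b. The 5 Hist genes higher in ENR+CV became 1 with median scaling. The Mki67 ratio in ENR (1.27) was 1.46 both unthinned and under 10% mitochondrial (1.46). Shares of cells with a Hist UMI were 87.2%, 70.9% and 90.5% unthinned and 54.4%, 33.2% and 53.4% at 500 UMIs in ENR, ENR+CD and ENR+CV, and 53.5% in ENR+CD under 10% mitochondrial. Beyond what each setting itself changes, the cause was not tested. No paired analysis was possible because each medium had 1 library, and for the same reason no replicate could be left out. Depth limits the members with few UMIs, whose intervals are wide.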
